A study of Mus musculus with 6 samples.

Results

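Gpnmb and 8 genes listed with it (Adam33, Ahnak2, Stra6l, Mmp12, Atp6v0d2, Sh3pxd2b, Xdh and Adgb) were followed through 6 single-nucleus RNA-seq libraries of mouse hippocampus, 9 of the 31053 genes counted. They form a named list with no threshold, put together because earlier results of these libraries had shown them higher where tau P301S met APOE4. Their tau and APOE4 differences are therefore given as descriptions, and the TREM2 contrast is the one comparison tested on them. All 9 passed the filter on low counts, and they passed it through the P301S/E4 libraries in which they were high.

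GPNMB is a transmembrane glycoprotein of phagocytes whose transcript is induced when lysosomes are loaded with lipid or debris. Transcription factors of the MiT/TFE family, which govern lysosomal genes, are known to act on it, and it marks foamy and lipid-laden macrophages as well as microglia around lesions. The other genes act at the cell surface and matrix (Adam33, Mmp12, Sh3pxd2b), in organelle acidification (Atp6v0d2), in retinol uptake (Stra6l), in purine breakdown (Xdh), in scaffolding (Ahnak2) or as an unusual globin (Adgb).

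Each library held nuclei sorted with an antibody to PU.1, a myeloid transcription factor, from the pooled hippocampi of 3 mice aged 9.5 months, and each genotype had 1 library. The genotypes were P301S/E4, P301S/EKO and E4, each as TREM2+ and as TREM2-, where P301S is a mutant human tau transgene, E4 human APOE4 in place of mouse Apoe, EKO a lack of Apoe, and TREM2- a lack of the microglial receptor TREM2. In this model tau is driven by the mouse prion promoter and so mainly by neurons. Every comparison lies within these 6 genotypes.

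The 31738 nuclei with at least 200 genes and at most 5% mitochondrial UMIs held 3172124 to 8376816 UMIs per library, with a median of 569 to 915 per nucleus. UMIs are transcript molecules counted by barcode. Levels are given as CPM, the UMIs of a gene per 1000000 UMIs of the library, and paired values without a genotype are in the order TREM2+, TREM2-. Trem2 lay at 917 to 1114 CPM in the TREM2+ libraries and at 348 to 580 CPM in the TREM2- libraries, lower in each of the 3 pairs but not absent. Apoe was 14.2 and 9.14 CPM in the P301S/EKO libraries against 187 to 1184 CPM in the other 4. All 18 microglia markers were detected in both P301S/E4 libraries, and any pair of libraries shared 4 to 11 nucleus barcodes. With 1 library per genotype, intervals are 95% intervals that cover counting error only, and fewer nuclei of a kind cannot be told apart from less RNA per nucleus in a library's sum.

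Promoter windows are shown first, since the members share a pattern across libraries. RefSeq windows on GRCm38.p6, 250 bases before to 50 after a transcription start, were found for 6 of the 9 genes. They were searched on both strands for CACGTG (the E-box of MiT/TFE factors), CATGTG (the core of their M-box), GAGGAAGT (PU.1), TGANTCA (AP-1) and the core of the interferon-stimulated response element, and capitals mark a match.
Gpnmb (chr6:49036268-49036567, plus strand): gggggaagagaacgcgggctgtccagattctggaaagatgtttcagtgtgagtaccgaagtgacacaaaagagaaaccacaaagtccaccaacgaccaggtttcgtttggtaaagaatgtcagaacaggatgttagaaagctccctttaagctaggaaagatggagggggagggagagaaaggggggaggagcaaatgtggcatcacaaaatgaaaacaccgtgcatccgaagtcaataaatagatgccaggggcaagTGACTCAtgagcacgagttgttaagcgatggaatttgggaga
Mmp12, first start (chr9:7344147-7344446, plus strand): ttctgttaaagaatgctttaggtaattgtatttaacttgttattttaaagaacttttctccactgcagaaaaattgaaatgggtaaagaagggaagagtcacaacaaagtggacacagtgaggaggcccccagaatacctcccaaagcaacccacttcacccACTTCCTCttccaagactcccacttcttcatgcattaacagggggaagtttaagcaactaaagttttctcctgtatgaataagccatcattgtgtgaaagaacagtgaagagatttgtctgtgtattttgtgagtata
Ahnak2 (chr12:112795693-112795992, minus strand): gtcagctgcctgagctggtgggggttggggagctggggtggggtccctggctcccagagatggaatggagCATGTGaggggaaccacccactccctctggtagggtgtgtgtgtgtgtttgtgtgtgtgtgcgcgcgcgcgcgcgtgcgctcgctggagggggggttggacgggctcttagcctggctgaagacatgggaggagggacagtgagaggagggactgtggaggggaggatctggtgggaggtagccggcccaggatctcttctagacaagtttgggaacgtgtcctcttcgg
The Gpnmb window held TGANTCA, beginning 8 bases after the start, and the Mmp12 window held GAGGAAGT on the opposite strand, 88 bases before it. CATGTG stood 180 bases before the RefSeq start of Ahnak2 and also in the window of the other Mmp12 start, together with a TGANTCA match. The Ahnak2 window lies inside the gene's GENCODE span (12:112772194-112802657, - strand) and not at the start of that span. Neither CACGTG nor the interferon response core occurred in any of the 8 windows of these 6 genes, and the windows of Stra6l, Sh3pxd2b and Adgb held none of the 5 motifs. Over 32851 windows genome-wide, CACGTG occurred in 7.15%, CATGTG in 14.2%, GAGGAAGT in 3.20%, TGANTCA in 7.81% and the interferon response core in 3.44%. A match is a run of letters and not an occupied site.

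Gpnmb (ENSMUSG00000029816, protein-coding, GRCm38 6:49036546-49070929, + strand) was almost confined to the P301S/E4 libraries. It had 1299 UMIs in P301S/E4/TREM2+ (225 CPM, 213 to 237) and 2533 in P301S/E4/TREM2- (302 CPM, 291 to 314). It had 32 UMIs in P301S/EKO/TREM2+ (8.56 CPM), 4 in P301S/EKO/TREM2- (1.26 CPM), 0 in E4/TREM2+ and 3 in E4/TREM2- (0.747 CPM). In order of level both P301S/E4 libraries came first with intervals that did not overlap, P301S/EKO/TREM2+ stood next, and the intervals of the last 3 libraries overlapped. A UMI of Gpnmb was seen in 9.09% of nuclei in P301S/E4/TREM2+ (8.38 to 9.83) and 10.9% in P301S/E4/TREM2- (10.2 to 11.7), against 0.419% in P301S/EKO/TREM2+. When every nucleus was thinned to 500 UMIs, the shares were 6.13% (5.54 to 6.75) and 6.60% (6.03 to 7.20), and 0 of 3600 nuclei in E4/TREM2+, which allows a share of nuclei with a UMI of up to 0.0833% (3 nuclei) and sets no limit on nuclei that express the gene. Thinning left out 1827, 1488 and 417 nuclei in P301S/EKO/TREM2-, E4/TREM2+ and E4/TREM2- and none elsewhere.

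Nuclei with UMIs of 4 or more of 10 neuron markers, a class that should lack Gpnmb, were used as a rough reading of free RNA, a set chosen after the data were seen. No doublet caller was run. Free RNA can therefore not be told apart here from 2 nuclei counted together, or from the RNA of these nuclei themselves. Such nuclei numbered 10 in P301S/E4/TREM2+ and 14 in P301S/E4/TREM2-, with medians of 4563.5 and 4315.5 UMIs. Gpnmb reached 21.0 and 62.1 CPM in them against 227 and 304 CPM in all other nuclei, and 1 and 2 of them held a UMI of it. In E4/TREM2- such nuclei held 2 of the 3 Gpnmb UMIs. For 2 other members the reading gave no margin. Sh3pxd2b was 62.9 CPM in such nuclei (3 UMIs) against 53.1 CPM in the others in P301S/E4/TREM2+, and 15.5 against 22.6 CPM in P301S/E4/TREM2-. Xdh was 31.0 CPM (2 UMIs) against 30.3 CPM in P301S/E4/TREM2- and 0 against 22.2 CPM in P301S/E4/TREM2+.

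**Figure D1:**
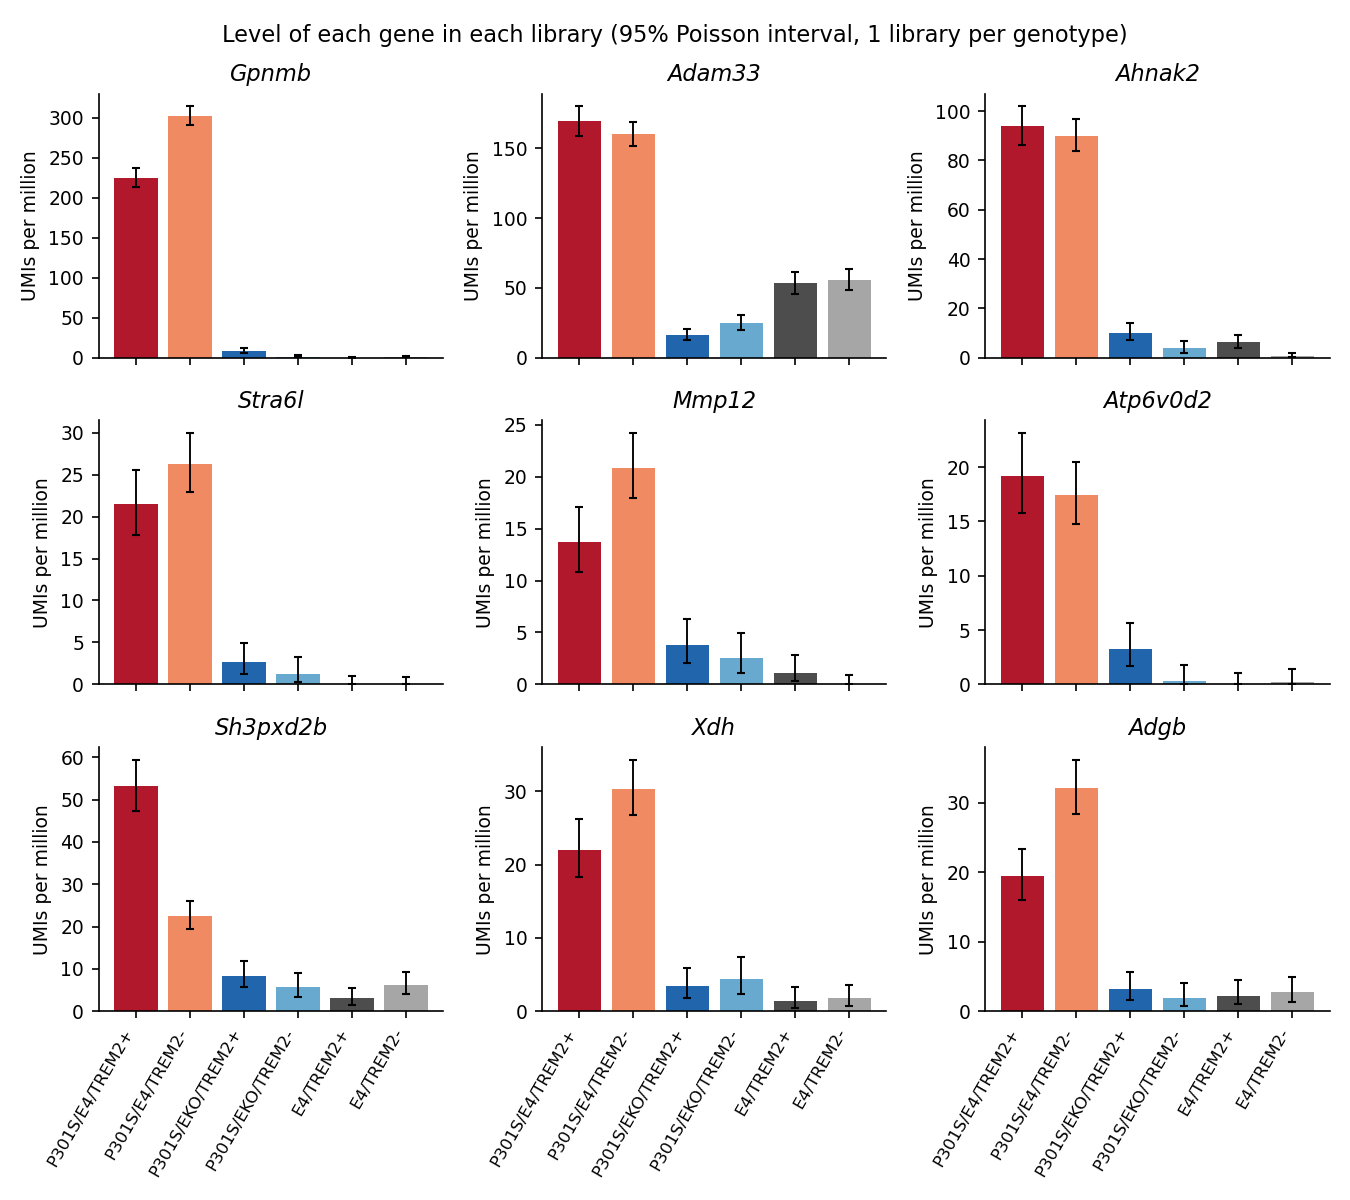
Level of each of the 9 genes in each library in CPM (linear axes from 0), with bars coloured by genotype and 95% Poisson intervals. The P301S/E4 bars are the highest for all 9 genes, Sh3pxd2b drops from 53.1 to 22.6 CPM between them, and Adam33 alone has clear bars in the E4 libraries, 53.1 and 55.5 CPM.

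Of the surface and matrix genes, Adam33, a membrane-anchored metalloprotease (2:131050591-131063814, - strand), was 169 and 160 CPM in P301S/E4. It was 53.1 and 55.5 CPM in E4, and 16.1 and 24.6 CPM in P301S/EKO. Its order thus differed from that of Gpnmb, with both E4 libraries above both P301S/EKO libraries. Mmp12, the macrophage metalloelastase (9:7344381-7369499, + strand, overlapped on the other strand by Mmp1b), had 79 and 175 UMIs in the P301S/E4 libraries (13.7 and 20.9 CPM), 14 and 8 in P301S/EKO and 4 and 0 in E4, TREM2+ first in each pair. Sh3pxd2b, the podosome scaffold TKS4 (11:32347820-32428173, + strand), was the member that differed most within P301S/E4, at 53.1 CPM with TREM2 and 22.6 CPM without. Its level was 8.29 and 5.67 CPM in P301S/EKO and 3.09 and 6.23 CPM in E4, so the E4 pair went the other way, with an interval of the log2 ratio that held 0 (-0.07 to 2.18).

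Atp6v0d2 (4:19876841-19922605, - strand), the d2 subunit of the proton pump's membrane domain that osteoclasts and macrophages use, had 111 and 146 UMIs in the P301S/E4 libraries, 12 and 1 in P301S/EKO, and 0 and 1 in E4. Stra6l (4:45848664-45887008, + strand), a receptor for retinol-binding protein best known from liver and gut, had 124 and 220 UMIs, then 10 and 4, and then 0 in both E4 libraries. These 2 genes and Gpnmb were the ones at or under 3 UMIs in each E4 library. Xdh (17:73883895-73950196, - strand), whose enzyme makes uric acid in the last steps of purine breakdown, was 22.0 and 30.3 CPM in P301S/E4 and 1.41 to 4.41 CPM in the other 4 libraries. Adgb (10:10335703-10472326, - strand), androglobin, which is known from testis, was 19.4 and 32.1 CPM against 1.89 to 3.21 CPM. Xdh and Adgb each overlap another gene on the same strand and Adgb also one on the opposite strand, so reads there may be split between them. Ahnak2 (12:112772194-112802657, - strand), a giant scaffold protein, was 93.8 and 90.0 CPM in P301S/E4, 10.2 and 3.78 CPM in P301S/EKO, and 6.18 and 0.498 CPM in E4.

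Tau was read as P301S/E4 against E4 and APOE4 as P301S/E4 against P301S/EKO, comparisons that share the P301S/E4 libraries and so are not independent. With TREM2, Gpnmb was at least 267-fold higher with tau and 26.3-fold higher with APOE4 (18.5 to 38.6). Without TREM2 the values were 405-fold, against 3 UMIs and with an interval of 138 to 1964, and 240-fold against 4 UMIs (93.5 to 881). For Stra6l they were at least 25.5-fold and 8.02-fold with TREM2 and at least 35.2-fold and 20.8-fold without. Adam33 had the smallest tau ratio of the 9, 3.19-fold with tau and 10.5-fold with APOE4 in TREM2+, and 2.89-fold and 6.51-fold in TREM2-. All 9 genes were higher in P301S/E4 in both comparisons and both TREM2 genotypes, with every counting interval above 0 on the log2 scale, as it was for 18.6% and 31.2% of the genes fitted below for tau and 11.1% and 23.6% for APOE4. The choice of the list fixes this. The median log2 ratio for APOE4 was 2.68 with TREM2 and 4.09 without.

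In the fit over all 6 libraries (edgeR's quasi-likelihood test with Benjamini-Hochberg adjustment, calls at 0.05), the median log2 fold change of the 9 genes was 4.89 for tau, from 1.57 for Adam33 to 9.83 for Stra6l, and 3.27 for APOE4, from 2.39 for Sh3pxd2b to 5.68 for Gpnmb. The medians over all 12515 genes tested were 0.01 in both. The test called 7.85% of genes higher with tau and 1.62% higher with APOE4, and all 9 genes were among them in both, which the choice of the list fixes. The APOE4 call of Mmp12 was lost without P301S/E4/TREM2- (adjusted p = 0.0685). Leaving out 1 library turned none of these fitted log2 fold changes but moved several of them widely. Gpnmb ranged from 8.32 (without E4/TREM2+) to 13.37 (without E4/TREM2-) for tau, and from 4.74 (without P301S/EKO/TREM2-) to 7.86 (without P301S/EKO/TREM2+) for APOE4. For tau, Ahnak2 ranged from 4.07 to 7.20 and Mmp12 from 3.73 to 9.56, each lowest without E4/TREM2- and highest without E4/TREM2+, while Sh3pxd2b (1.88 to 3.99) and Atp6v0d2 (5.73 to 9.79) were lowest without E4/TREM2+ and highest without E4/TREM2-. Sh3pxd2b ranged from 1.58 (without P301S/E4/TREM2+) to 3.02 (without P301S/E4/TREM2-) for APOE4. Atp6v0d2 ranged from 2.59 to 5.68 for APOE4, Ahnak2 from 3.11 to 4.99 and Mmp12 from 1.75 to 3.31. The fitted values for genes with 0 UMIs in a library depend on a prior count and are no bounds.

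P301S/EKO against E4 set the backgrounds with 1 of the 2 factors beside each other. Gpnmb was at least 10.2-fold higher in P301S/EKO with TREM2 (32 UMIs against 0), while without TREM2 its log2 ratio was 0.76 with an interval of -1.81 to 3.53. Those 32 UMIs lay in 15 nuclei, 4 of which held 20 of them. Adam33 was lower in P301S/EKO, with log2 ratios of -1.73 (-2.17 to -1.30) with TREM2 and -1.18 (-1.57 to -0.80) without. Ahnak2 had log2 ratios of 0.72 (-0.08 to 1.55) and 2.93 (0.76 to 6.13), the latter against 2 UMIs.

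Adam33 had a clear level in E4 mice, and its nuclei there were mostly those with markers of border-associated macrophages, the macrophages of meninges and perivascular spaces. Nuclei with UMIs of 2 or more of 10 such markers (Mrc1, F13a1, Pf4, Ms4a7 and others), a set chosen after the data were seen, made up 4.26% and 5.70% of nuclei in the E4 pair and held 88.9% and 93.7% of the Adam33 UMIs. They held 63.3% and 84.6% in the P301S/EKO pair, but 25.8% and 40.5% in the P301S/E4 pair, where they were 3.88% and 7.55% of nuclei. Outside them Adam33 was 136 and 111 CPM in P301S/E4 and 3.73 to 6.25 CPM in the other 4 libraries, a level shared by P301S/EKO and E4, whereas Gpnmb had 0 UMIs in E4/TREM2+. The tau ratio outside them was 21.7-fold with TREM2 and 29.9-fold without, and the APOE4 ratio 21.9-fold and 28.9-fold. Ms4a7 is itself among the genes found most with Gpnmb, and without it as a marker the set held 85.7% and 89.2% of Adam33 UMIs in E4, 19.2% and 25.9% in P301S/E4. Of the Sh3pxd2b UMIs such nuclei held 24 of 25 in E4/TREM2- and 7 of 11 in E4/TREM2+, against 41 of 307 in P301S/E4/TREM2+ and 69 of 189 in P301S/E4/TREM2-. Without Ms4a7 as a marker these were 20 of 25, 7 of 11, 27 of 307 and 40 of 189. Of the Gpnmb UMIs they held 8.62% and 26.2% in P301S/E4, or 2.54% and 9.40% without Ms4a7 as a marker.

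**Figure D2:**
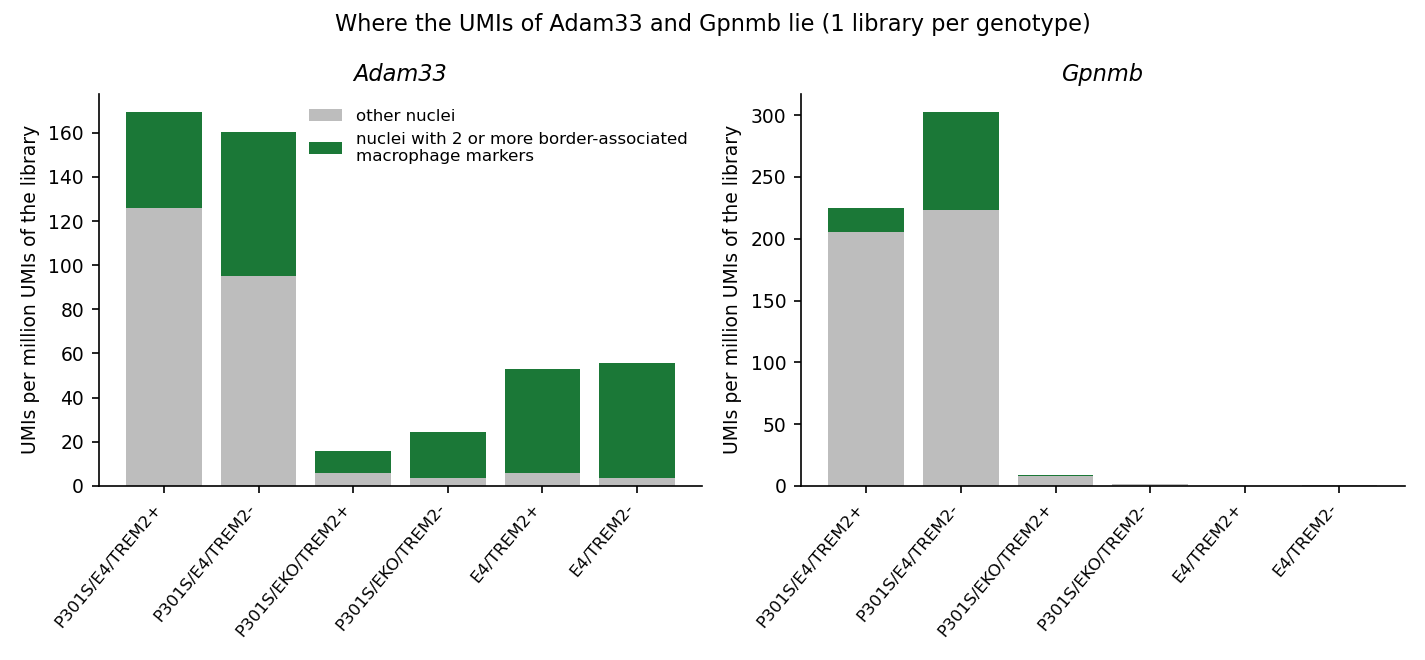
Stacked bars of Adam33 (left) and Gpnmb (right) in each library in CPM, split into nuclei with 2 or more border-associated macrophage markers (green) and other nuclei (grey). In the E4 libraries 88.9% and 93.7% of Adam33 lies in the green part, in the P301S/E4 libraries 25.8% and 40.5%.

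The TREM2 contrast asked whether loss of TREM2 altered these genes over the 3 backgrounds, and no member passed it. The quasi-likelihood test called 14 of 12515 genes (0.112%) at an adjusted p of 0.05 or less, and 0 of the 9 members. At an unadjusted p of 0.05 or less it passed 6.08% of genes and 0 of 9 members. DESeq2 called 16 genes and 0 members, with 1 member and 2.37% of genes at an unadjusted p of 0.05 or less. Gpnmb had a log2 fold change (TREM2- minus TREM2+) of 0.05 (SE 0.37, edgeR adjusted p = 0.995), Adam33 of 0.14 (SE 0.15, adjusted p = 0.966) and Stra6l of 0.05 (SE 0.34). The lowest were Ahnak2 at -0.66 (SE 0.35, adjusted p = 0.894) and Sh3pxd2b at -0.64 (SE 0.34, adjusted p = 0.899). The median of the 9 was 0.05, and that of all genes 0.00245. In the 4 P301S libraries alone 0.455% of genes and 0 members were called. Without P301S/E4/TREM2- the test called 93 genes (0.727%), Ahnak2 among them at -1.96 (adjusted p = 0.0302). Gpnmb has few UMIs outside P301S/E4, and a missed threshold does not show that levels were alike.

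Within P301S/E4, where nearly all the members' UMIs lie, the TREM2- library was higher for Gpnmb, with a log2 ratio of 0.43 (0.33 to 0.52), for Adgb at 0.73, Mmp12 at 0.61 (0.22 to 1.01) and Xdh at 0.46. It was lower for Sh3pxd2b, at -1.24 (-1.51 to -0.97), 189 against 307 UMIs. Of the genes fitted, 21.7% had an interval above 0 in this pair of libraries and 15.8% below 0, against 4 and 1 of the 9 members. The Mmp12 interval takes UMIs as independent, yet 4 nuclei of each library held 42 of 79 and 104 of 175 of them, and Mmp12 was seen in 0.501% and 0.543% of nuclei with overlapping intervals. The intervals of Adam33 (-0.08), Ahnak2 (-0.06), Stra6l (0.29) and Atp6v0d2 (-0.14) held 0. Sh3pxd2b kept its direction at 500 UMIs per nucleus, 2.26% of nuclei against 1.01%, while Gpnmb was seen in 6.13% and 6.60%. At 1000 UMIs per nucleus the Gpnmb shares turned, to 15.6% (13.8 to 17.6) with TREM2 and 13.8% (12.6 to 15.1) without, with overlapping intervals. In P301S/EKO 7 of 9 members were lower without TREM2, with intervals below 0 for Gpnmb at -2.76 (-4.72 to -1.27), Atp6v0d2 at -3.35 (-8.77 to -0.59) and Ahnak2 at -1.43 (-2.50 to -0.46), from at most 38 UMIs a library, against 12.3% of genes. Adam33 was higher there without TREM2, at 0.62 with an interval above 0, as for 7.42% of genes. With all deposited nuclei 0 members had an interval above 0. The P301S/EKO pair differed in depth, with medians of 807 and 569 UMIs per nucleus. At 500 UMIs per nucleus 6 of 9 members were lower without TREM2. With at least 500 genes per nucleus, 3 were lower and 4 higher of the 7 with a ratio. Gpnmb and Atp6v0d2 then had 0 UMIs in P301S/EKO/TREM2-. In the E4 pair 4 of the 5 members with a ratio were higher without TREM2, with intervals that held 0. Ahnak2 was lower there, at -3.63 from 22 UMIs with TREM2 and 2 without. Its interval lay below 0, as for 12.7% of genes. Each of these ratios is a difference between 2 pooled libraries and has no replicate check.

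The comparison was repeated without nuclei that held a UMI of Ahnak (a giant scaffold protein related to Ahnak2), Hal (histidine ammonia-lyase) or Cd38 (an NAD-consuming surface enzyme). These 3 genes were picked because they were higher in P301S/E4/TREM2-, so leaving their nuclei out removes more there by construction: 526 of 7004 nuclei (7.51%) against 108 of 6186 (1.75%) in P301S/E4/TREM2+, and 34 to 100 in the other libraries. The nuclei left out were also deeper, with a median of 1185.5 UMIs against 902 for the rest in P301S/E4/TREM2- and 957 against 773 in P301S/E4/TREM2+. In P301S/E4/TREM2- they held 48.3% of all Gpnmb UMIs (1223 of 2533), 67.8% of Atp6v0d2, 55% of Stra6l, 43.2% of Adam33 and 44.3% of Ahnak2, but 9.71% of Mmp12 and 17.1% of Adgb. In P301S/E4/TREM2+ they held 6.24% of Gpnmb and 10.2% of Adam33.

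Without these nuclei the direction within P301S/E4 turned for Gpnmb, to a log2 ratio of -0.28 (-0.40 to -0.17), 180 CPM in TREM2- against 219 CPM in TREM2+. Intervals lay below 0 for 6 of 9 members, against 14.9% of genes, Adam33 at -0.59, Ahnak2 at -0.70, Stra6l at -0.64 (-1.04 to -0.24), Atp6v0d2 at -1.55 (-2.08 to -1.04) and Sh3pxd2b at -1.77 being the others. Mmp12 at 0.67 and Adgb at 0.69 stayed higher with intervals above 0, as for 21.1% of genes, and Xdh was at -0.06 (-0.42 to 0.30). In the fit over 6 libraries without these nuclei, edgeR called 0.113% of genes and 0 of 9 members, while 3 members, against 6.28% of genes, passed an unadjusted p of 0.05. They were Ahnak2 at -1.11, Atp6v0d2 at -1.67 and Sh3pxd2b at -1.08. Neither these 3 members nor the 6 above can be read as an effect of TREM2. The nuclei left out were chosen by genes higher in P301S/E4/TREM2-, which by construction lowers members found in the same nuclei there. Tau and APOE4 ratios without them were above 0 for all 9 members, as with them.

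**Figure D3:**
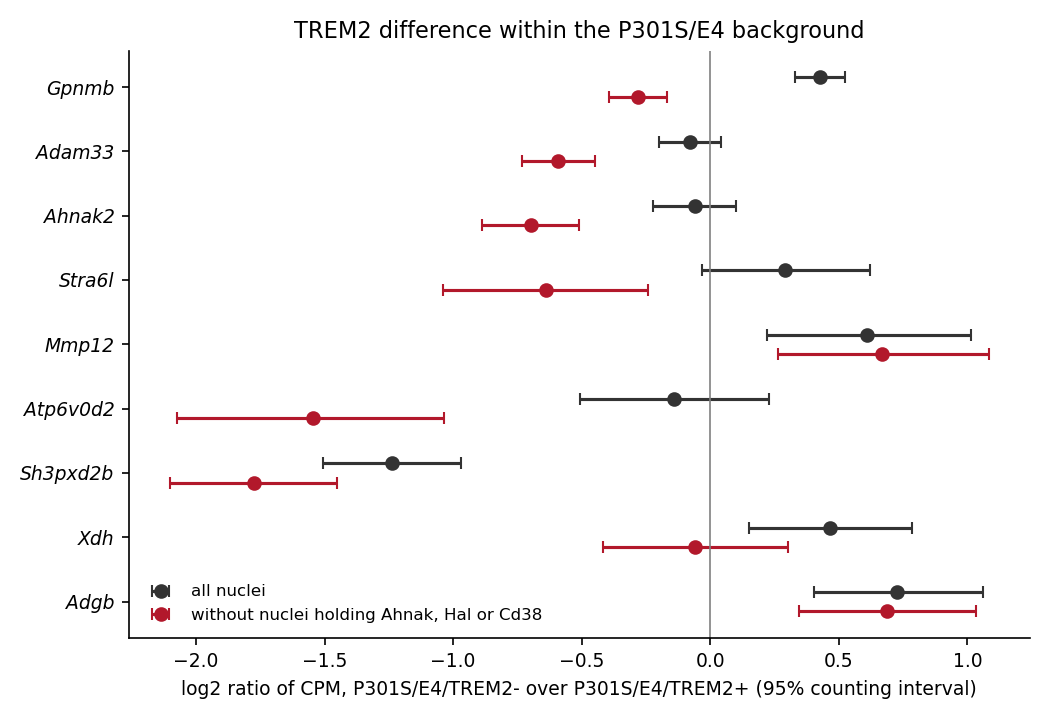
Within P301S/E4, the log2 ratio of CPM without TREM2 to CPM with it for each of the 9 genes, with all nuclei (black) and without nuclei holding Ahnak, Hal or Cd38 (red), and 95% counting intervals. Gpnmb moves from 0.43 to -0.28 and Atp6v0d2 from -0.14 to -1.55, while Mmp12 and Adgb hardly move.

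The nuclei holding these genes were rich in Gpnmb in P301S/E4/TREM2-. Gpnmb was 1121 CPM in them and 180 CPM in the rest there, and 396 against 219 CPM with TREM2. A Gpnmb UMI was present in 63.5% of the 189 nuclei with Hal, 50.3% of the 195 with Ahnak and 42.1% of the 261 with Cd38 in P301S/E4/TREM2-, and in 50% of 22, 13.2% of 38 and 21.4% of 56 in P301S/E4/TREM2+. In the P301S/EKO and E4 libraries such nuclei held no Gpnmb UMI. Those libraries had only 32, 4, 0 and 3 Gpnmb UMIs in all, too few to show whether Gpnmb is found in such nuclei there. Summed microglia markers were lower in them (13832 against 20913 CPM in P301S/E4/TREM2-, 14378 against 20467 in P301S/E4/TREM2+) and all 10 border-associated macrophage markers were higher (1798 against 462 CPM and 3145 against 412 CPM). Monocyte markers summed to 136 against 45.2 CPM in P301S/E4/TREM2-. The part of these markers and of depth in the turn of direction was not tested.

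Within a library, the other members were found more often in nuclei that held Gpnmb. At 500 UMIs per nucleus, 379 nuclei with TREM2 and 462 without held Gpnmb in P301S/E4, and no other library had 20. Adam33 was present in 23.0% of Gpnmb-positive nuclei (18.8 to 27.5) against 3.69% of the others in P301S/E4/TREM2+, and in 25.5% against 3.16% in P301S/E4/TREM2-. Ahnak2 was present in 16.4% against 3.19% and in 20.3% against 1.65%. The steepest contrasts were those of Atp6v0d2, 5.01% against 0.396% and 5.19% against 0.138%, and Stra6l, 5.80% against 0.551% and 9.52% against 0.367%. All 8 genes were more frequent in Gpnmb-positive nuclei in both libraries, by a median of 6.18-fold and 8.38-fold, and the intervals were apart for 7 of 8 in each. Among all genes seen in no fewer nuclei than the rarest and no more than the most frequent of these members, 44.9% and 44.4% were more frequent in Gpnmb-positive nuclei, and intervals were apart for 1.62% and 3.19%. Those genes were matched on frequency only, whereas the members had been listed as higher in P301S/E4. The choice of the list thus favours this outcome, and the shares are a description. The exceptions were Sh3pxd2b in P301S/E4/TREM2+ (4.22% against 2.14%) and Mmp12 in P301S/E4/TREM2- (1.08% against 0.214%, 5 and 14 nuclei). Without nuclei holding Ahnak, Hal or Cd38 all 8 were again more frequent in both libraries, with intervals apart for 8 and 5, against 1.61% and 1.88% of such genes. Trem2, by contrast, was present in 42.5% of Gpnmb-positive and 42.9% of other nuclei in P301S/E4/TREM2+, with overlapping intervals. Its unthinned level there was nonetheless 1120 CPM (1091 to 1150) at 0 Gpnmb UMIs and 871 CPM (722 to 1042) at 5 or more. In P301S/E4/TREM2- these levels were 595 CPM (576 to 613) and 519 CPM (459 to 584).

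**Figure D4:**
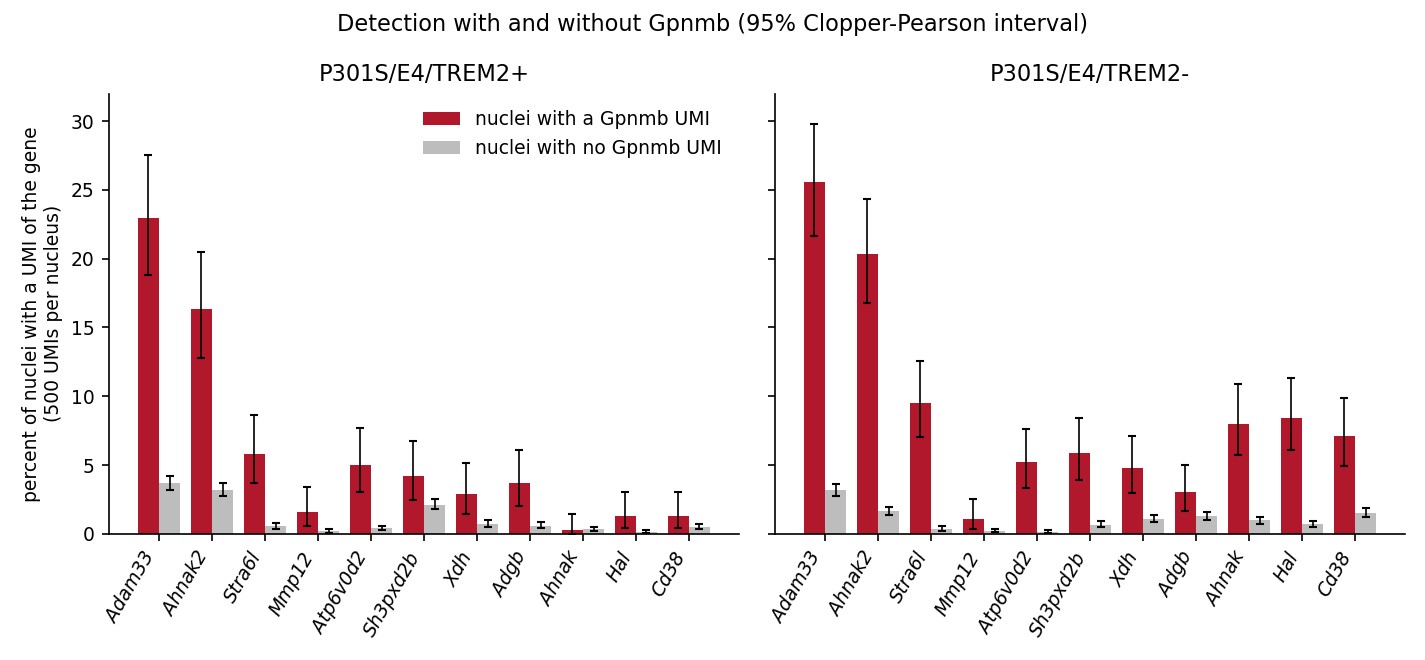
Percent of nuclei with a UMI of each gene, among nuclei with (red) and without (grey) a Gpnmb UMI, at 500 UMIs per nucleus in both P301S/E4 libraries, with 95% Clopper-Pearson intervals. Adam33 reaches 23.0% and 25.5% in Gpnmb-positive nuclei, and Ahnak, Hal and Cd38 are raised with Gpnmb in P301S/E4/TREM2-, where they reach 8.01%, 8.44% and 7.14%.

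The members were also found with each other, although most nuclei showed 1 at a time. Of the 28 pairs of members without Gpnmb, 23 in P301S/E4/TREM2+ and 22 in P301S/E4/TREM2- had a phi coefficient (the correlation of presence across nuclei) above 0, with a median of 0.03 and 0.04 and a highest of 0.12 and 0.18. Over all pairs of genes in that range of frequency, 39.4% and 40.3% had a phi above 0. With the 8 pairs that include Gpnmb the medians were 0.03 and 0.06. At 500 UMIs, 15.8% and 13.7% of nuclei in these libraries held 1 or more members against 1.83% to 2.58% elsewhere. Nuclei with 3 or more numbered 59 (0.954%) and 94 (1.34%), against 1 nucleus in P301S/EKO/TREM2+ and 0 in the other 3 libraries. The members were listed as higher in P301S/E4, which favours both of these contrasts with the other libraries.

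More of the Gpnmb lay in nuclei with many of its UMIs in P301S/E4/TREM2-, the deeper library (median 915 against 775 UMIs per nucleus). Nuclei with 5 or more Gpnmb UMIs numbered 64 in P301S/E4/TREM2+ and 186 in P301S/E4/TREM2-, and held 39.3% and 62.3% of its UMIs. Nuclei with exactly 1 numbered 323 and 362. Gpnmb-positive nuclei were deeper than negative ones, with medians of 983 against 762 UMIs and 1236 against 889. Mmp12 was more concentrated still, with 42 of 79 and 104 of 175 UMIs in 4 nuclei of each library, and up to 39 in 1 nucleus. Without those 4 nuclei Mmp12 was 6.41 and 8.48 CPM.

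Across 4 bins of Gpnmb UMIs per nucleus (0, 1, 2 to 4, 5 or more, set after the data were seen), levels of most members went up stepwise. Adam33 was 89.7, 379, 803 and 1154 CPM with TREM2 and 70.6, 219, 632 and 841 CPM without. Atp6v0d2 went from 6.85 to 276 CPM and from 2.21 to 184 CPM between the end bins, Ahnak2 from 63.7 to 632 CPM and from 30.5 to 587 CPM. Xdh was 17.5, 53.0, 46.6 and 43.6 CPM with TREM2 and 18.6, 37.1, 80.4 and 131 CPM without, and Adgb went from 27.0 to 58.7 CPM without TREM2. Homeostatic microglia markers were lower in Gpnmb-positive nuclei, 10 of 10 in both libraries, with a summed level of 3404 against 4957 CPM and 3360 against 5537 CPM. Cx3cr1, the fractalkine receptor, was 1490 CPM at 0 Gpnmb UMIs and 1016 CPM at 5 or more with TREM2, and 1426 and 767 CPM without. All 18 microglia markers remained detected in every bin.

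Markers of disease-associated microglia reached different levels in the 2 libraries. Spp1, which encodes osteopontin, was 292 CPM at 0 Gpnmb UMIs and 1989 CPM at 5 or more with TREM2, but 53.7 and 296 CPM without. Over the list of such markers, the summed level was 3599 CPM in Gpnmb-positive against 2374 CPM in negative nuclei with TREM2, and 1453 against 1258 CPM without, with 6 of 9 higher in both. Border-associated macrophage markers summed to 756 against 468 CPM in Gpnmb-positive and negative nuclei of P301S/E4/TREM2+, yet 9 of the 10 were lower in the positive ones and Ms4a7 alone was higher. Mrc1, the mannose receptor that defines those macrophages, was 86.0 CPM at 0 and 21.8 CPM at 5 or more with TREM2, and 133 and 60.6 CPM without.

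**Figure D5:**
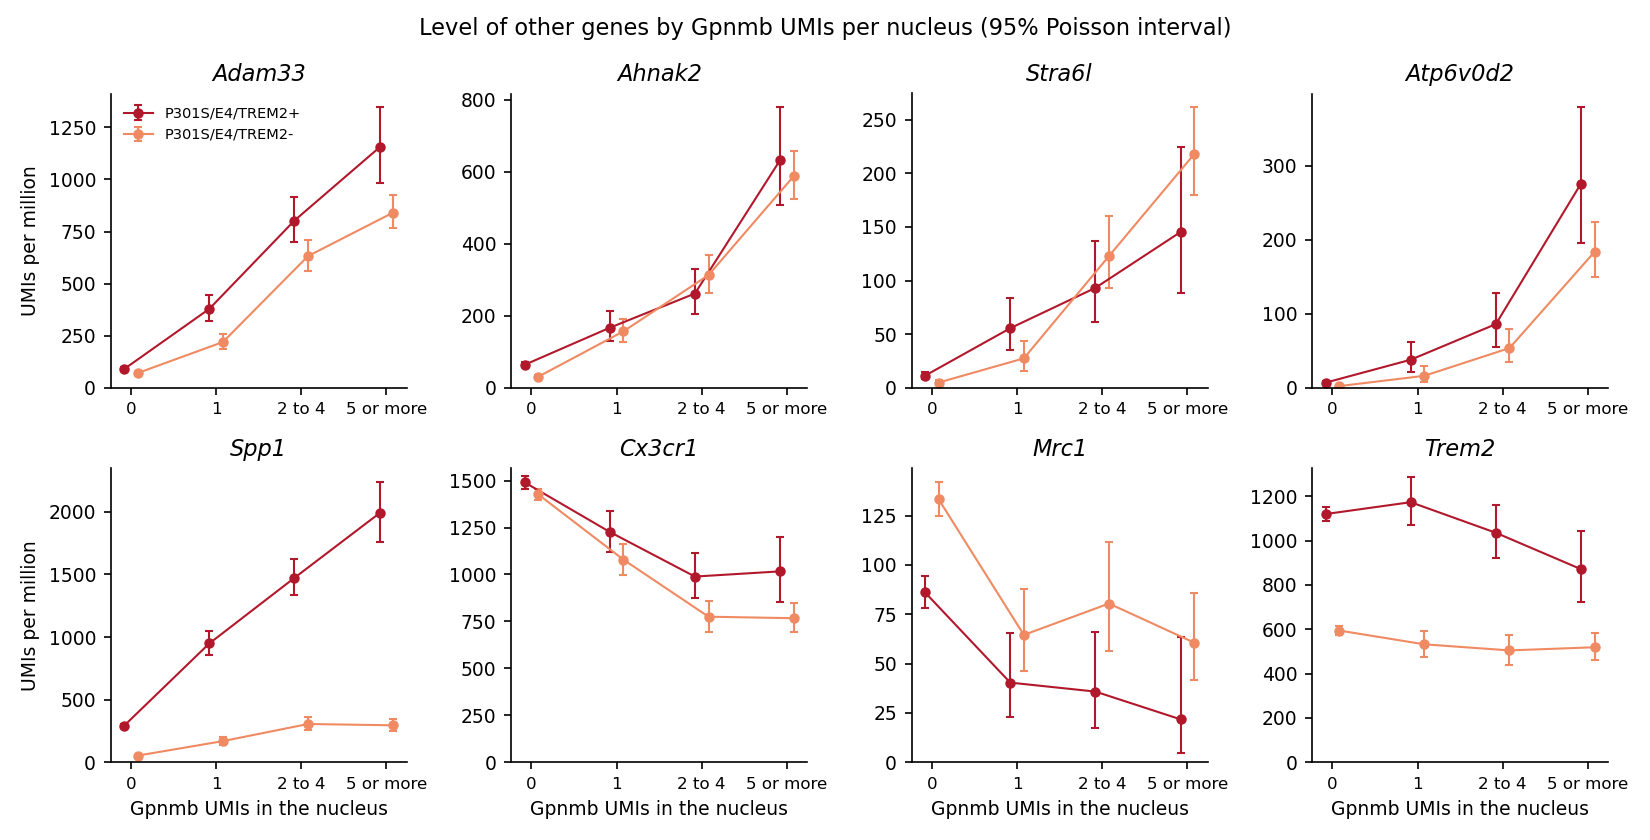
Level of 4 members (upper row) and of Spp1, Cx3cr1, Mrc1 and Trem2 (lower row) in nuclei grouped by their number of Gpnmb UMIs, in CPM over those nuclei, with TREM2 (dark) and without (light), with 95% Poisson intervals. Adam33 goes from 89.7 to 1154 CPM and from 70.6 to 841 CPM, while Spp1 reaches 1989 CPM in the first library and 296 CPM in the second.

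The genes most like Gpnmb were ranked by the lower of the phi coefficients in the 2 P301S/E4 libraries, over 7436 genes present in 50 or more nuclei of each. Adam33 ranked 1 (phi 0.21), Ahnak2 4 (0.16) and Stra6l 7 (0.14), with Xdh at 37 and Sh3pxd2b at 100. The members had been listed as higher in these libraries, which favours high ranks. Mmp12, Atp6v0d2 and Adgb were in too few nuclei to rank. The 10 highest genes outside the list were Ms4a7 (0.17), Spp1 (0.17), Lilr4b (0.14), Myof (0.14), Sash1 (0.13), Lgals3 (0.12), Ms4a14 (0.12), Ddhd1 (0.11), Lyst (0.10) and Fabp5 (0.09), against a median phi of -0.01. Lgals3 encodes galectin-3, which binds damaged lysosomes, Lyst a regulator of lysosome trafficking, and Fabp5 a fatty acid carrier. These 10 were picked within the P301S/E4 libraries and had to be present in enough nuclei there, so their fitted log2 fold changes are given with no test: 0.95 (Ms4a7) to 6.88 (Spp1) for tau and 0.69 (Lyst) to 3.88 (Spp1) for APOE4. In the TREM2 contrast edgeR's test called 1 of the 10, Spp1, lower without TREM2 by 2.22 on the log2 scale (SE 0.19, adjusted p = 0.00118). That call was lost without P301S/E4/TREM2+ (adjusted p = 0.0952).

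The families and pathways the members belong to were read in the same edgeR fit, from lists that leave the members out. These lists were chosen with earlier results of these data known. Over all genes 1.62% rose and 1.66% fell with APOE4, and 7.85% rose and 8.61% fell with tau. For APOE4, 1 of 10 tested ADAM-family genes rose (Adam8, by 2.33, adjusted p = 0.00799), 0 of 7 matrix metalloproteases and their inhibitors, 0 of 16 podosome genes, 0 of 7 osteoclast genes and 0 of 10 purine genes. Of 8 retinoid genes 2 rose, the nuclear receptor Rxrg by 1.68 (adjusted p = 0.0401, lost in 5 of 18 alternatives with an adjusted p of up to 0.154) and the retinal reductase Dhrs3 by 0.78 (adjusted p = 0.0274). Of 2 tested AHNAK genes and partners 1 rose, Ahnak by 2.67 (adjusted p = 0.00369), a gene picked for its level in P301S/E4/TREM2-. The rest of the proton pump gave 1 of 18 (Atp6v1b2, by 0.68, adjusted p = 0.0362, lost in 5 of 18 alternatives, among them DESeq2 and 500 UMIs per nucleus, with an adjusted p of up to 0.262), with a list median of 0.22. Of 19 MiT/TFE factors and lysosomal genes 3 rose, Fnip2 by 1.22, the protease Ctsd by 0.84 and Ctsb by 0.73 (lost without P301S/EKO/TREM2-, adjusted p = 0.146), with a median of 0.36. Of 7 relatives and binding partners of GPNMB 2 rose, Cd44 by 2.31 (adjusted p = 0.0138, and 0.0557 without P301S/EKO/TREM2-) and the integrin Itga5 by 0.98. None of the globins on the list passed the count filter, so Adgb had no family member to set beside it. For tau, 11 of the 19 MiT/TFE and lysosomal genes rose, Mitf by 1.30 among them, and 1 fell, and 5 of 18 proton-pump genes rose and 1 fell. Of the 10 ADAM-family genes 1 rose and 3 fell with tau, as did 1 and 3 of the 7 osteoclast genes, while 2 of 16 podosome genes rose and 2 fell. Among the 7 matrix metalloproteases and inhibitors and the 10 purine genes 1 rose and 1 fell in each. Of the 8 retinoid genes 3 rose, of the 2 AHNAK genes 1 (Ahnak), and of the 7 GPNMB relatives 2 rose and 1 fell.

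Genes of lipid-associated macrophages, phagocytes that take up and store lipid, were the list with the most calls. This list, like the others, was chosen with earlier results of these data known. Its counts of genes that rose are therefore a description. Of 18 tested 14 rose with APOE4, with a median log2 fold change of 1.32, and 17 rose with tau, against 1.62% and 7.85% of all genes. The 18th, the scavenger receptor Cd36, fell with tau by 2.18 (adjusted p = 0.00705). Apoe is itself on this list, and its APOE4 call (6.42) is fixed by genotype, since P301S/EKO lacks Apoe. Among the APOE4 calls, that of Itgax (1.03, adjusted p = 0.0315) was lost in 5 of 18 alternatives, with an adjusted p of up to 0.199. In the TREM2 contrast 3 of these 18 fell, and no gene of the other lists named here was called. The 3 were Lpl, lipoprotein lipase, by 1.73 (SE 0.15, edgeR adjusted p = 0.00118), Spp1 as above and Itgax, the integrin CD11c, by 1.93 (adjusted p = 0.00473). The calls of Spp1 and Itgax were lost without P301S/E4/TREM2+ (adjusted p = 0.0952 and 0.061), and that of Lpl held in all 18 alternatives. Whether the members' TREM2 effect differs from that of these 3 genes was not tested.

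The authors' deposited tables compare nuclei they call TERM with homeostatic ones and give all 9 members a positive log fold change, from 2.71 for Adgb to 6.00 for Stra6l, with Gpnmb at 4.85. By log fold change these 2 members rank 454 and 112 of 16056 genes. Ahnak, Hal and Cd38 are also positive in that comparison, at 4.46, 4.56 and 5.33. The share of all genes with a positive value was not counted. The base of the logarithm is not stated. In the authors' deposited table of P301S/E4/TREM2+ against P301S/E4/TREM2-, Gpnmb is at -0.51 (their adjusted p = 0.00429) and Xdh at -1.51 (their adjusted p = 0.00133), the 2 members with an adjusted p under 0.05 there. Sh3pxd2b is at 0.69 in that table. Mmp12 is at 0.16 (their unadjusted p = 0.788), the other direction from its ratio within P301S/E4 above. Ahnak, Hal and Cd38 are at -25.91, -3.09 and -3.52, Ahnak being the lowest of the 16056 genes listed. Here Ahnak had 68 UMIs in P301S/E4/TREM2+ (11.8 CPM, against 33.9 CPM in P301S/E4/TREM2-). The value of -25.91 is thus not the size of the difference in the nuclei counted here. What that test counted as a replicate is not given in the sources used here.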

How the data were processed

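Single-nucleus RNA-seq of PU.1-sorted hippocampal nuclei gave 6 libraries, 1 per genotype. The authors made UMI counts per gene and nucleus with Cell Ranger 3.0.1 on mm10, per the file headers and the submitters' processing notes, and deposited filtered matrices. Whether intronic reads were counted is not given in the sources used here. The authors' deposited tables give log fold changes, used as a score since their log base is not stated, and p-values.

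Nuclei with 200 or more genes and 5% or fewer mitochondrial UMIs were kept, 31738 of 33335. No doublet caller was run and nuclei were not clustered. CPM is UMIs per 1000000 UMIs of a library, with exact Poisson intervals. Ratios of 2 libraries have exact conditional binomial intervals, and shares have exact Clopper-Pearson intervals. A gene at 0 was set to 3 counts per library for a bound. UMIs were summed per library and fitted with edgeR 4.0.16 under R 4.3.3 (limma 3.58.1) in an additive model of background and TREM2, with TMM factors, filterByExpr and the quasi-likelihood F test, with 2 residual degrees of freedom. Calls were made at 0.05 after Benjamini-Hochberg adjustment over all genes tested. DESeq2 1.42.0 was an alternative. On simulated counts with 100 genes changed 2-fold and 100 changed 4-fold in the TREM2 contrast, over 12515 genes, the fit recovered 87 and 99. Those genes were drawn from genes with higher mean counts. They had the same level in all backgrounds and the common dispersion of 0.01715. The recovery therefore does not describe members with few UMIs in P301S/EKO and E4. Python 3.11.15 with numpy 2.4.6, scipy 1.17.1, pandas 2.3.3 and matplotlib 3.10.9 did the rest.

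Gene locations come from GENCODE vM21 on GRCm38, which matched 30934 of 31053 features. Promoter windows come from RefSeq. The text names the 9 members, Ahnak, Hal and Cd38, the targeted genes, the 10 genes most co-detected with Gpnmb, and a few genes per list by calls or size. Markers used for sets of nuclei were fixed with the lists. The members and the lists were chosen with earlier results of these data known. The neuron, border-associated macrophage and Gpnmb-count sets were added after seeing the data. Libraries hold pooled mice, so p-values measure the spread between these libraries only.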

Additional observations from a re-analysis of the deposited data

Results flagged for a closer look

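Gpnmb moved in opposite directions without TREM2 in the 2 tau backgrounds. Its log2 ratio of TREM2- over TREM2+ was 0.43 (0.33 to 0.52) in P301S/E4, from 2533 and 1299 UMIs, and -2.76 (-4.72 to -1.27) in P301S/EKO, from 4 and 32 UMIs. The difference between these was not tested, since each genotype has 1 library. Of the 32 UMIs in P301S/EKO/TREM2+, 20 lay in 4 nuclei. Without nuclei holding Ahnak, Hal or Cd38 the P301S/E4 ratio was -0.28. Those nuclei held 48.3% of Gpnmb UMIs in P301S/E4/TREM2- and 6.24% in P301S/E4/TREM2+. The 3 genes were picked as higher in P301S/E4/TREM2-, so the ratio is lowered by construction. No likeness between the 2 backgrounds can be read from it.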

How the results depend on the processing

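The count of genes called in the TREM2 contrast (14) was 226 with no filter on low counts, 59 in the 4 P301S libraries, 40 in those without nuclei holding Ahnak, Hal or Cd38 (added after seeing the data), and 11 to 114 leaving out a library, with 0 to 1 members called. Tau calls (2059) were 1347 by DESeq2 and 1083 to 2788 leaving out a library. APOE4 calls (411) were 203 at 500 UMIs per nucleus, 1258 with no filter, 618 in the P301S libraries and 282 to 1300 leaving out a library. Gpnmb's TREM2 log2 fold change of 0.05 was below 0 without nuclei holding any of those 3 genes (-0.54) or 2 of them (-0.16), with 500 genes per nucleus or all deposited nuclei (-0.0057 and -0.011), without markers of other classes (-0.073), and in the P301S libraries (-0.035, or -0.63 without holding nuclei), ranging from -1.87 to 0.44 leaving out a library. Adam33 (0.14) was at -0.26, with 500 genes -0.015, without other classes -0.38, in the P301S libraries without holding nuclei -0.29, and -0.020 to 0.31 leaving out a library. Stra6l (0.05) was at -0.73 without holding nuclei in both sets of libraries, -0.13 without those holding 2, -0.14 by DESeq2 and -0.996 to 0.25 leaving out a library. Mmp12 (0.11) was -0.33 by DESeq2 and -0.98 to 0.30 leaving out a library, Sh3pxd2b -1.05 to 0.17 and Adgb -0.17 to 0.62. Gpnmb's ratio within P301S/E4 (0.43) was -0.28 without holding nuclei, 0.17 without those holding 2, 0.27 with 500 genes, 0.29 without other classes, and, added later, 0.079 at 1000 UMIs and 0.23 without border-associated macrophage markers, and Xdh's was -0.060 without holding nuclei. Its share of nuclei (9.09% with and 10.9% without TREM2) was 12.4% and 12.9% with 500 genes, 3.86% and 5.75% at 2 or more UMIs, 6.13% and 6.60% at 500 UMIs and 15.6% and 13.8% at 1000. In TREM2- it was 8.14% without holding nuclei, 9.96% without those holding 2 and 9.72% without other classes. Another size factor changed no member's direction in the TREM2 contrast, and co-detection counts stayed within 1.5 times. Where a value moved, the cause was not tested. Background is a term of the fit, so TREM2 is compared within 3 pairs of libraries. By replicate number no paired analysis was possible because each genotype has 1 library. Members with under 20 UMIs in P301S/EKO or E4 have wide intervals there, and leaving out a library leaves its background with 1 sample, assumed to vary like the others.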
